A study of Homo sapiens with 93 samples.

Results

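The 35 genes described here encode heterogeneous nuclear ribonucleoproteins (hnRNPs) and core proteins of the spliceosome. They were listed by gene identity, with no threshold on a measured value, and all 35 were found among the 14000 features of the deposited H3K36me3 count table. This mark, the trimethylated form of histone H3 lysine 36, was measured by CUT&Tag, in which an antibody on chromatin directs a transposase that cuts out DNA for sequencing. The samples were 93 human lymphoblastoid lines (B cells made permanent by Epstein-Barr virus), with no treatment or genetic change named in the labels and 1 library per line. All lines form 1 group, so there is no contrast between conditions. Differences between libraries hold line, culture and library preparation together. The labels name 4 growth batches but do not assign lines to them, so batch and line cannot be told apart.

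H3K36me3 is placed on nucleosomes by SETD2, which travels with elongating RNA polymerase II, so the mark lies over the bodies of transcribed genes and is a chromatin trace of transcription and not of mRNA level. hnRNPs coat nascent transcripts and can block or promote the use of splice sites, while U1, U2 and the U4/U6.U5 tri-snRNP assemble on each intron to form the spliceosome. Several hnRNP and SR-related genes limit their own protein by splicing in exons that send the mRNA to nonsense-mediated decay, a step after transcription.

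Library totals ran from 2842955 to 24325746 counts, with a median of 14883653. The mean count of a gene of the set over libraries ran from 157 for PCBP1 to 3728 for SNRNP200, and the lowest count in any library was 24, for PCBP1. PCR copies are not independent molecules, and in a bulk library a smaller share of cells carrying the mark and less mark per cell cannot be told apart. A drop in the counts, placed at a table row that differed between libraries, touched the rows of SF1 and SF3B2. The mean correlations over all pairs and with neighbouring rows are also given without these genes, and the calls with the side of the drop as a covariate. Levels of the set include both genes, and its median log2 CPM is the value of SF1.

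To show what stands upstream of the marked bodies, 4 RefSeq promoter windows (GRCh38.p14) are printed, each from 250 bases before to 50 after an annotated start. HNRNPC (ENSG00000092199.17) belongs to the pair of genes that varied most closely together across lines, and HNRNPA2B1 (ENSG00000122566.21) had the highest level per kilobase. EFTUD2 (ENSG00000108883.13) and SNRNP200 (ENSG00000144028.15) followed the other genes least in the main correlations described below. Capitals mark matches on either strand to 6 motifs, which are the ETS core CCGGAAG, the GC box GGGCGG, the CCAAT box, the TATA box TATAAA, the E-box CACGTG and the NRF1 consensus site. No motif contains another, although matches can share bases.
HNRNPC, chr14:21269393-21269692, minus strand: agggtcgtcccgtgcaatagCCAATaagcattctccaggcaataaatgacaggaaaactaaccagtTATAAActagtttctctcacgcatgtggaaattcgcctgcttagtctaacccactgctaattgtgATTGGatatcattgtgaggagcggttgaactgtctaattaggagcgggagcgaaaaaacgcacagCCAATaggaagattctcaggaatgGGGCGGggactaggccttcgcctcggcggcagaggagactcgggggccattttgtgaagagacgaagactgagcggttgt
HNRNPA2B1, chr7:26200697-26200996, minus strand: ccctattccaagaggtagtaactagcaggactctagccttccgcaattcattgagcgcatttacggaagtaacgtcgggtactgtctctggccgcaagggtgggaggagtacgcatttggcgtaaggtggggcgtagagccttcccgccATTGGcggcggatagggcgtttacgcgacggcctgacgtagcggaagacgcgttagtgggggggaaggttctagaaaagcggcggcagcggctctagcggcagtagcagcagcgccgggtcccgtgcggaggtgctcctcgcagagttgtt
EFTUD2, chr17:44899396-44899695, minus strand: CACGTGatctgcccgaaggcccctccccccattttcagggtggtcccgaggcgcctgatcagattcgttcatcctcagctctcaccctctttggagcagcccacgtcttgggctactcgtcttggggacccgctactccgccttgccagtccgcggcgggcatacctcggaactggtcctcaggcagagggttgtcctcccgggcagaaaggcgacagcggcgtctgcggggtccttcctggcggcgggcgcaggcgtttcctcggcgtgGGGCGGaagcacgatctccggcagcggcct
SNRNP200, chr2:96305497-96305796, minus strand: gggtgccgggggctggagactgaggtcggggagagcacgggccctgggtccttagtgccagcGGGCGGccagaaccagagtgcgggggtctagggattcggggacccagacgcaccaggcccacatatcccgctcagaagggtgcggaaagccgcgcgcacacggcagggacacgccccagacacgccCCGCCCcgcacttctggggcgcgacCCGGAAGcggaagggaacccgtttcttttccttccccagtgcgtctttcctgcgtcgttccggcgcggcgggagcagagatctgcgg

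The HNRNPC window held 3 CCAAT boxes, a TATA box and a GC box, and the HNRNPA2B1 window 1 CCAAT box. EFTUD2 had an E-box and a GC box in the window shown, and SNRNP200 had 2 GC boxes and an ETS core. RefSeq windows were found for 30 of the 35 genes, 46 windows in all, some of them overlapping alternative starts of 1 gene. The GC box was in 31 of 46 windows (67.4%), against 45% of all 35116 promoters in the table. The E-box was in 21.7% against 7.3%, the ETS core in 19.6% against 10.3%, the CCAAT box in 41.3% against 34.6%, and the TATA box in 6.5% against 11.5%. The NRF1 site was in 0 of 46 windows, against 1.2% of all. These shares describe letters in a window and were not tested.

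Most of the 35 genes stood high in the range of H3K36me3. On log2 CPM (CPM are counts scaled to a common library total, here with TMM factors), their median was 6.88 against 5.40 for all features, a difference of 1.48. In 93 of 93 lines the median of the set was above that of all features, by 1.53 ± 0.23 (SD, n = 93). Of the 35, 32 were above the all-feature median and 22 were in the top quintile, which holds 20.0% of features by construction. These levels are per gene, not per length, and a longer gene can collect more counts.

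The general level changed along the rows of the table, from a median of 5.74 log2 CPM in rows 1 to 1900 to 4.85 in rows 3201 to 7700, where 14 of the genes lie (row limits chosen after the values were seen). Each gene was therefore also set against the 100 rows before and the 100 after it. On this measure the median difference was 1.53 log2, and 23 of 35 genes were at least 1 log2 above their surroundings, against 26.3% of all features. HNRNPC stood highest above its neighbours (3.26), followed by HNRNPUL1 (3.07), SF3B3 (2.86) and PRPF8 (2.81). PCBP1 (-2.51) and HNRNPDL (-0.90) were below theirs, and both have short gene spans (1.73 and 7.90 kb). HNRNPA1, shorter than HNRNPDL at 6.36 kb, was 0.57 above its surroundings, and the part of span was not tested.

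The levels of single genes are given here per gene, as CPM in the lowest, median and highest line. CPM are compared between genes only per kilobase of span, which does not remove the change in general level along the rows. Among the quasi-RRM hnRNPs, which bind runs of G, HNRNPF had 82.5, 122 and 171 CPM and HNRNPH1 had 52.7, 86.1 and 151. Per kb of span their median levels were 5.17 and 4.18. HNRNPK, a KH-domain protein that also binds DNA, had 28.9, 57.6 and 98.3 CPM, and its relative PCBP2 had 113, 180 and 272. Per kb the gap was smaller, with 4.59 for HNRNPK and 6.18 for PCBP2. PTBP1, which represses exons flanked by pyrimidine tracts, had 50.6, 82.8 and 121 CPM, and HNRNPL had 67.3, 102 and 143. HNRNPU had 58.7, 97.4 and 154 CPM and its relative HNRNPUL1 had 150, 210.1 and 273. Per kb HNRNPU was the higher in the median line, at 6.83 against 4.65. Against their surroundings, without division by span, the order was the reverse, with 0.65 log2 for HNRNPU and 3.07 for HNRNPUL1.

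Among the splice-site and snRNP genes, U2AF2, which binds the pyrimidine tract, had a median of 95.5 CPM and a maximum of 128, and its partner U2AF1 had 28.7, 45.4 and 79.6. Per kb U2AF2 had 4.85 and U2AF1 3.10. TRA2A had 75.3, 137 and 204 CPM, and the speckle proteins SRRM1 and SRRM2 had 77.8, 136 and 190 and 65.6, 103 and 148. Per kb these 3 genes lay close together in the median line, at 5.02, 4.54 and 5.48. DHX15, the helicase that takes spliceosomes apart, had 99.8, 165 and 236 CPM over its span of 57.1 kb.

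**Figure D1:**
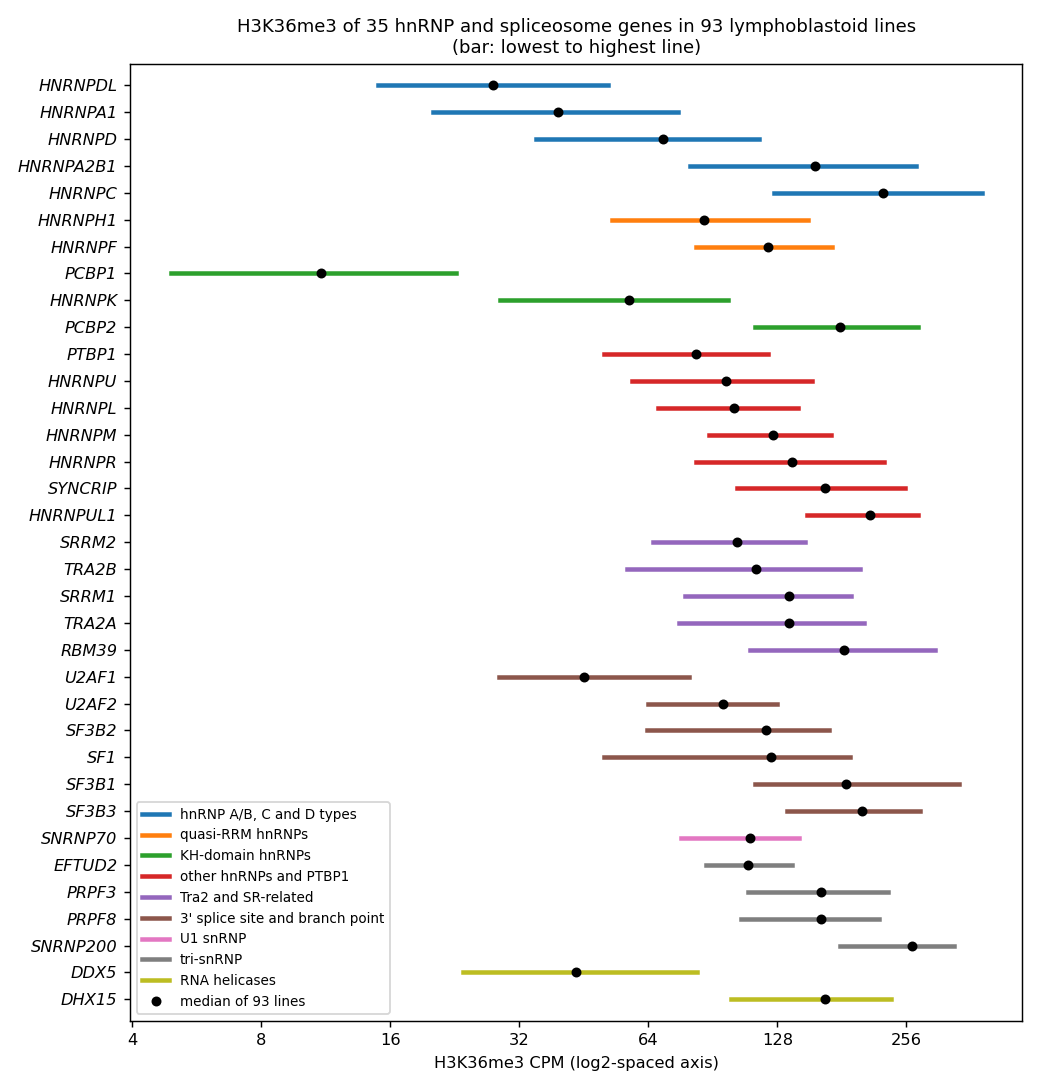
H3K36me3 level of each of the 35 genes as CPM on a log2-spaced axis, grouped by role. Bars run from the lowest to the highest of 93 lines and dots mark the median; PCBP1 (median 11.03) lies lowest and SNRNP200 (264) highest, and levels are not divided by gene length.

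Divided by the RefSeq gene span, levels were closer together. Median CPM per kb of span ranged from 2.21 to 14.5 over the set. Highest was HNRNPA2B1, an RNA-binding hnRNP that also has roles in RNA sorting, with 7.398 in the lowest line, 14.5 in the median line and 24.9 in the highest. SF1 (ENSG00000168066.20), which recognises the branch point, followed with a lowest, median and highest value of 3.62, 8.89 and 13.6, and SNRNP200, the helicase that unwinds U4/U6, with 5.75, 8.47 and 10.6. The ranges of these 3 genes overlapped across lines. SF3B2 came next, at 3.75, 7.12 and 9.96. SF1 and SF3B2 lie in the rows touched by the drop, and their lowest values come from libraries with the drop before them. In such libraries their median CPM was 66.3 and 78.5, against 130 and 128 in the others.

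At the lower end of the per-kilobase scale, EFTUD2, the GTPase of the U5 snRNP, had 1.77, 2.21 and 2.80 CPM per kb in the lowest, median and highest line. HNRNPM had 2.004, 2.83 and 3.88, the helicase DHX15 had 1.75, 2.90 and 4.13, and U2AF1, which reads the AG at the 3' splice site, had 1.96, 3.10 and 5.45. The highest EFTUD2 line was below the lowest HNRNPA2B1 line. These values keep the change in general level along the rows. EFTUD2 and HNRNPM lie in rows 3201 to 7700 (median 4.85 log2 CPM), HNRNPA2B1 and DHX15 in rows 9601 to 14000 (5.77). Against its surroundings, without division by span, EFTUD2 stood 2.16 log2 higher and HNRNPA2B1 1.13. Shorter genes had more counts per kb (Spearman's rho = -0.56 across the 35 genes, which are not independent replicates). Span is itself the divisor of this measure, so a negative value is partly built in. PCBP1, a gene without introns, had 6.39 CPM per kb, close to its intron-containing relative PCBP2 at 6.18. The general level of their rows differed, with a median of 5.91 log2 CPM in rows 7801 to 8500, which hold PCBP1, and 4.85 in those of PCBP2. Span was used in place of the authors' counted interval, for which the sources used here give no definition. PCBP1, the shortest gene, would be touched most by any flank counted with it.

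Some of these levels are less certain than their counts. RefSeq lists pseudogenes named after 17 of the 35 genes, and HNRNPA1 alone has 75. GRCh38 also carries a near-identical second copy of U2AF1. No source used here says how reads shared with such copies were counted. Coding genes overlap 5 of the 35 spans, among them HIGD1B with EFTUD2, MAP3K12 with PCBP2, CEP95 with DDX5 and RMI1 with HNRNPK.

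The spread between lines was tested against a dispersion trend, fitted by level over all tested features. Of 13915 features tested, 18.4% were more variable than the dispersion trend (edgeR's deviance goodness-of-fit test, Benjamini-Hochberg adjusted p under 0.05, with library total and dynamic range as covariates). Dynamic range here means how far the top quintile of features lies above the bottom quintile, as a difference of median log2 CPM. Among the 35 genes 6 were called, a share near that background in this fit. Their median ratio of own to trended dispersion was -0.54 log2, against -0.56 for all features, and their median coefficient of variation was 0.213 against 0.205. Most features thus lay below the trend, and HNRNPK, with a ratio of -0.01, was at percentile 67.9 of all features.

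Within the set the genes differed widely. The called genes were SF1, DDX5, HNRNPA1, PCBP1, HNRNPA2B1 and TRA2B. DDX5 (ENSG00000108654.15), a DEAD-box helicase that binds structured RNA and acts in transcription and splicing, had 23.6 CPM in the lowest line, 43.4 in the median line and 82.9 in the highest. Its dispersion was 0.87 log2 above the trend (edgeR goodness-of-fit, adjusted p = 7.2e-05). HNRNPA1 (ENSG00000135486.18), a splicing repressor that opposes SR proteins, had 20.1, 39.5 and 75.2 CPM, a 3.73-fold range, and a ratio of 0.84 (edgeR, adjusted p = 0.000125). Lines were spread over the whole of these ranges, with a coefficient of variation of 0.284 for DDX5 and 0.285 for HNRNPA1.

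HNRNPA2B1, the closest relative of HNRNPA1 in the set, had 80.1, 156 and 269 CPM in the lowest, median and highest line and a ratio of 0.69 (edgeR, adjusted p = 0.00146). TRA2B (ENSG00000136527.18), an SR-like activator of exons, had 57.1, 114 and 199 CPM and a ratio of 0.59 (edgeR, adjusted p = 0.00916). PCBP1 (ENSG00000169564.7), which binds C-rich RNA through KH domains, had 4.91, 11.03 and 22.8 CPM and a ratio of 0.71 (edgeR, adjusted p = 0.00688). The highest line exceeded the lowest by 3.36-fold, 3.49-fold and 4.63-fold in these 3 genes.

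These calls depended on what was removed from the data. With the first 5 principal components as covariates DDX5 alone of the 35 was called, against 18.6% of all features, and the ratio fell below 0 for HNRNPA2B1 (-0.16) and TRA2B (-0.11). With no covariates 12 of the 35 were called, against 22.7% of all features, adding HNRNPC, HNRNPD, HNRNPDL, HNRNPH1, HNRNPK, HNRNPU and RBM39 and losing PCBP1 (edgeR, adjusted p = 0.134). DESeq2's dispersion outliers included none of the 35, and 1.83% of all features.

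The 5 genes lowest in this ratio were the 4 genes of the tri-snRNP and SNRNP70 of the U1 snRNP. EFTUD2 had 87.4 CPM in the lowest line, 109.6 in the median line and 138 in the highest, a 1.58-fold range, with a log2 ratio of own to trended dispersion of -3.01, which put it at percentile 0.252 of all features. SNRNP200 had 179, 264 and 331 CPM, with a ratio of -2.33. PRPF3, part of the U4/U6 snRNP, had 109, 161 and 232 CPM and a ratio of -2.05, and PRPF8, the protein at the heart of the catalytic core, had 106, 162 and 221 CPM and a ratio of -1.84. SNRNP70, which binds U1 RNA, was alike, with 76.3, 110.4 and 144 CPM and -1.86. None of the 4 tri-snRNP genes or SNRNP70 was called, against 18.4% of all features, and their ratios lay in the lowest 10.3% of all features.

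The other roles had higher median ratios than these. Of the 5 hnRNP A/B, C and D genes 2 were called, against 18.4% of all features, and the median ratio of the 5 was 0.32. Counts in groups this small were not tested against that share. The 3 KH-domain genes HNRNPK, PCBP1 and PCBP2 had a median of -0.01 and the 5 Tra2 and SR-related genes -0.58. The median was 0.21 for the 2 RNA helicases, -0.13 for the 2 quasi-RRM genes and -0.77 for the 7 other hnRNP genes, PTBP1 included. The 6 genes of the 3' splice site and branch point ran from -1.41 for SF3B3 to 1.13 for SF1. Across the 35 genes the ratio was lower for longer spans (rho = -0.61) and for higher levels (rho = -0.43), as a description over genes that share libraries. The span of the called genes ran from 1.73 kb for PCBP1 to 23.5 kb for TRA2B, and that of the 4 tri-snRNP genes from 31.2 to 49.5 kb. The part of gene length in the difference between roles was not tested.

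**Figure D2:**
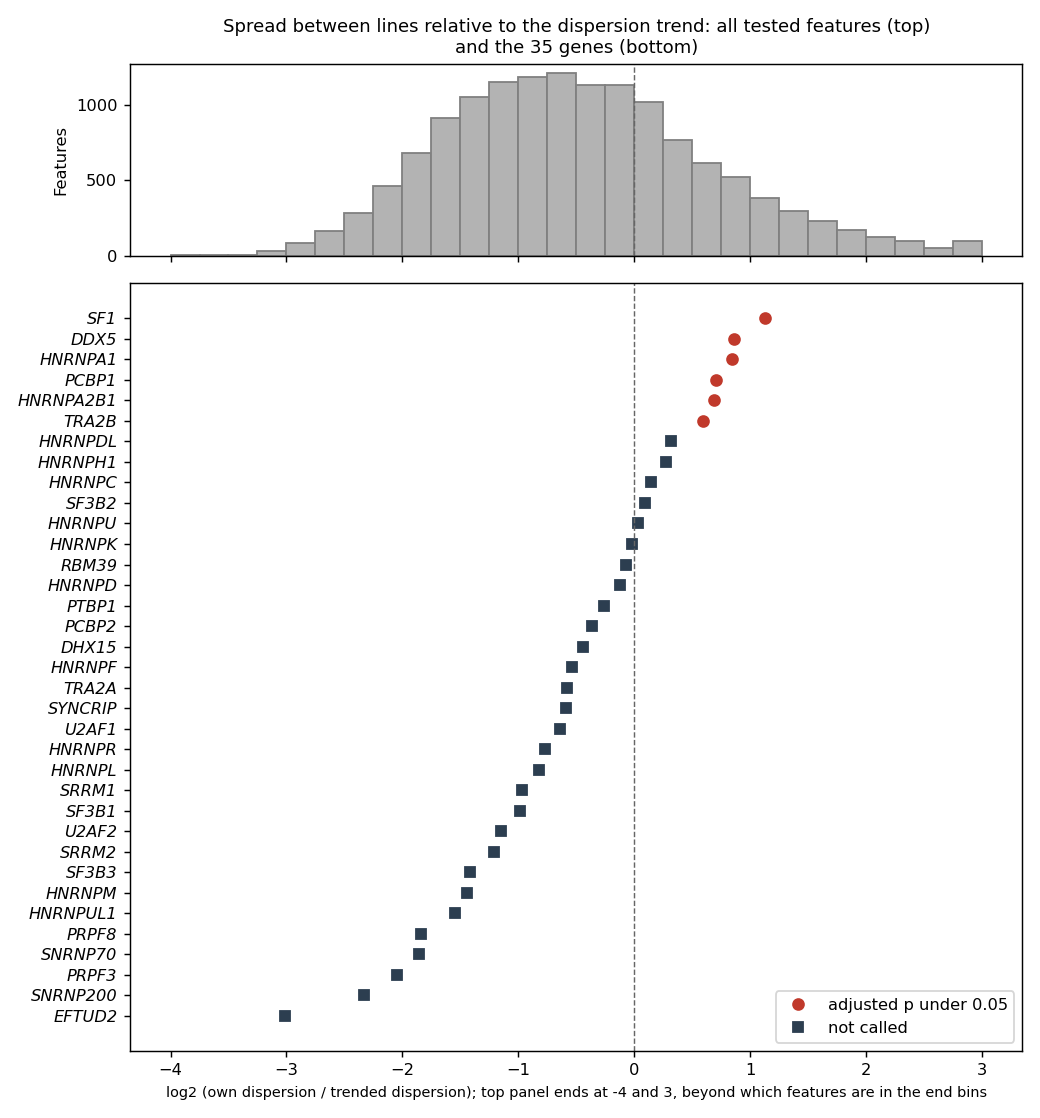
Ratio of each gene's own dispersion to the trended dispersion, on a log2 scale; the upper panel counts all 13915 tested features in bins and the lower panel gives the 35 genes, with the 6 called genes as red circles. The called genes lie between 0.59 and 1.13, and EFTUD2 lies lowest at -3.01.

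SF1 and SF3B2, neighbours on chromosome 11, need to be read apart from the others. The counts of the features around them dropped at a row that differed between libraries, and SF1 is row 2463 and SF3B2 row 2517. For each library the row that best split these features into 2 levels was taken as the place of the drop. These places ran from row 2017 to row 3047. The method gives every library a place, and whether each single library has a drop was not tested. The places were found from rows other than those of the 35 genes. In the 80 libraries whose drop came after the row of SF1, it had 82.7 CPM in the lowest, 130 in the median and 189 in the highest library. In the 13 libraries whose drop came before it, SF1 had 50.4, 66.3 and 91.3 CPM. The means differed by 0.92 log2 (SD 0.28 in each group), and 10 of the 13 were below all of the 80.

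SF3B2, a subunit of the SF3B complex that holds the branch point, gave 98.4, 128 and 169 CPM in the lowest, median and highest of 74 libraries with the drop after it. The other 19 libraries had 63.6, 78.5 and 113 CPM, a difference in means of 0.66 log2 (SD 0.18 in each group), and 17 of them were below all of the 74. The other 3 of the 13 libraries for SF1 and 2 of the 19 for SF3B2 reached into the range of the larger group, and some libraries of that group lay below them. For the SF1 split the median library total was 16488847 counts in the 80 libraries and 7899665 in the 13, and for the SF3B2 split it was 15746179 in the 74 and 12076968 in the 19. When the side of the drop at the row of SF1 was added as a covariate, SF1 was no longer called (ratio 0.18, edgeR goodness-of-fit, adjusted p = 0.718). With the side at the row of SF3B2 added in its place, SF1 was still called (edgeR, adjusted p = 0.0396) but PCBP1, on another chromosome, was not (ratio 0.53, edgeR, adjusted p = 0.0985). The calls of DDX5, HNRNPA1, HNRNPA2B1 and TRA2B were kept in both fits.

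**Figure D3:**
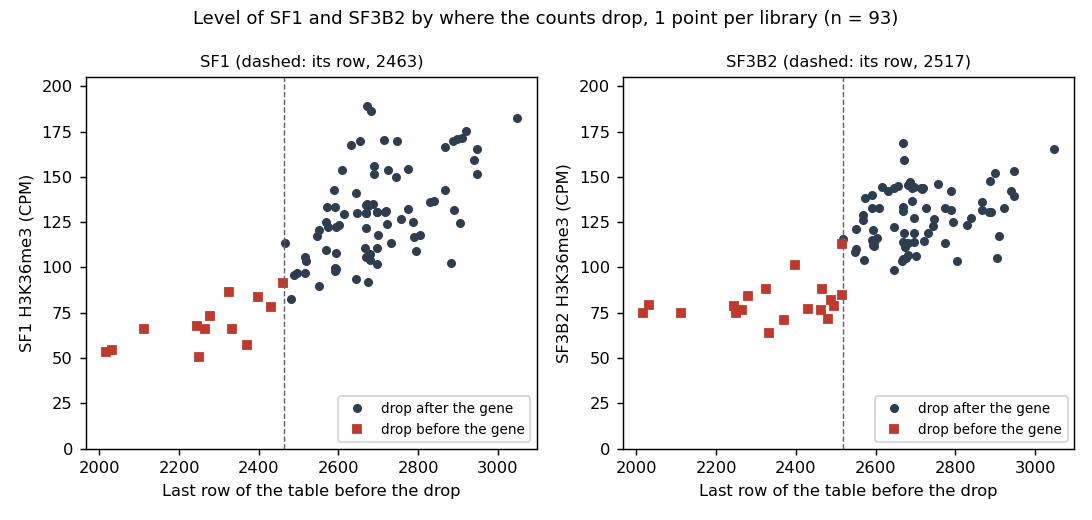
CPM of SF1 (left) and SF3B2 (right) in each of 93 libraries against the last table row before the drop in counts placed in that library. The dashed line is the gene's own row. Red squares, with the drop before the gene, have medians of 66.3 and 78.5 CPM, and dark circles have medians of 130 and 128 CPM.

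Across lines the genes of the set rose and fell together. After library total and dynamic range were removed from log2 CPM, the 595 pairs had a mean Pearson correlation of 0.543 and a median of 0.585 over 93 lines. Of these pairs 415 (69.7%) were above 0.5, against 1.75% of all pairs of features at least 1500 rows apart. Among features in the top quintile by level the share was 4.61%. Pairs on different chromosomes gave the same picture, with 388 of 561 above 0.5, and without SF1 and SF3B2 the mean was 0.540. In 22 lines at least 30 of the 35 genes were above the level fitted from the covariates, and in 19 lines at least 30 were below it.

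All points of such a correlation share their library, so the size depends on what is taken out of all features. With no covariates removed the mean was 0.642 and 73.3% of pairs were above 0.5, against 8.85% of all pairs. With 5 principal components removed the mean was 0.308, with 14.5% against 0.0265%, and with 10 it was 0.201, with 6.05% against 0.00789%. The mean was 0.528 in the 46 libraries of lower total, 0.468 in the other 47, 0.431 without the 10 lines farthest from the middle of the set's mean, and 0.550 on the authors' deposited scores. The size thus fell as components were removed, while the share of pairs above 0.5 stayed higher in the set than among all pairs in the 3 of these settings where both were computed.

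The common movement followed the main axis of the whole table. The first principal component of all tested features after adjustment held 16.1% of the variance, and the mean of the 35 standardised genes had r = 0.785 with it (rho = 0.779, and 0.761 when the 2 farthest lines were left out). Of the 35 genes, 31 had r above 0.5 with this component, against 15% of all features, and 14.6% of all features but 0 of the 35 were below -0.5. The place of the drop in counts moved with it too, with r = 0.595 for the component and r = 0.441 (rho = 0.354, r = 0.371 without the 2 farthest lines) for the mean of the 33 genes outside the affected rows. The component includes the features from which the place of the drop was found, so part of the value of 0.595 may be built in. With the position of the drop also removed, the mean pairwise correlation was 0.428 and 41% of pairs were above 0.5, against 0.312% of all pairs.

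The closest pair was HNRNPC, which binds U-rich tracts, with RBM39, a U2AF-like splicing factor (r = 0.912, rho = 0.887, r = 0.903 without the 2 farthest lines). HNRNPC had 126, 226 and 384 CPM in the lowest, median and highest line, and RBM39 had 111, 183 and 299. HNRNPC with TRA2B followed at r = 0.885, then HNRNPA1 with HNRNPA2B1 at 0.874, TRA2B with RBM39 at 0.874 and HNRNPA2B1 with HNRNPU at 0.874. The genes of each of these pairs are on different chromosomes. Against the mean of the other 34 genes, RBM39 (r = 0.893), SYNCRIP (0.885) and HNRNPU (0.871) were highest. HNRNPU, also called SAF-A, binds chromatin-associated RNA, and SYNCRIP, also called hnRNP Q, binds A-rich RNA.

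**Figure D4:**
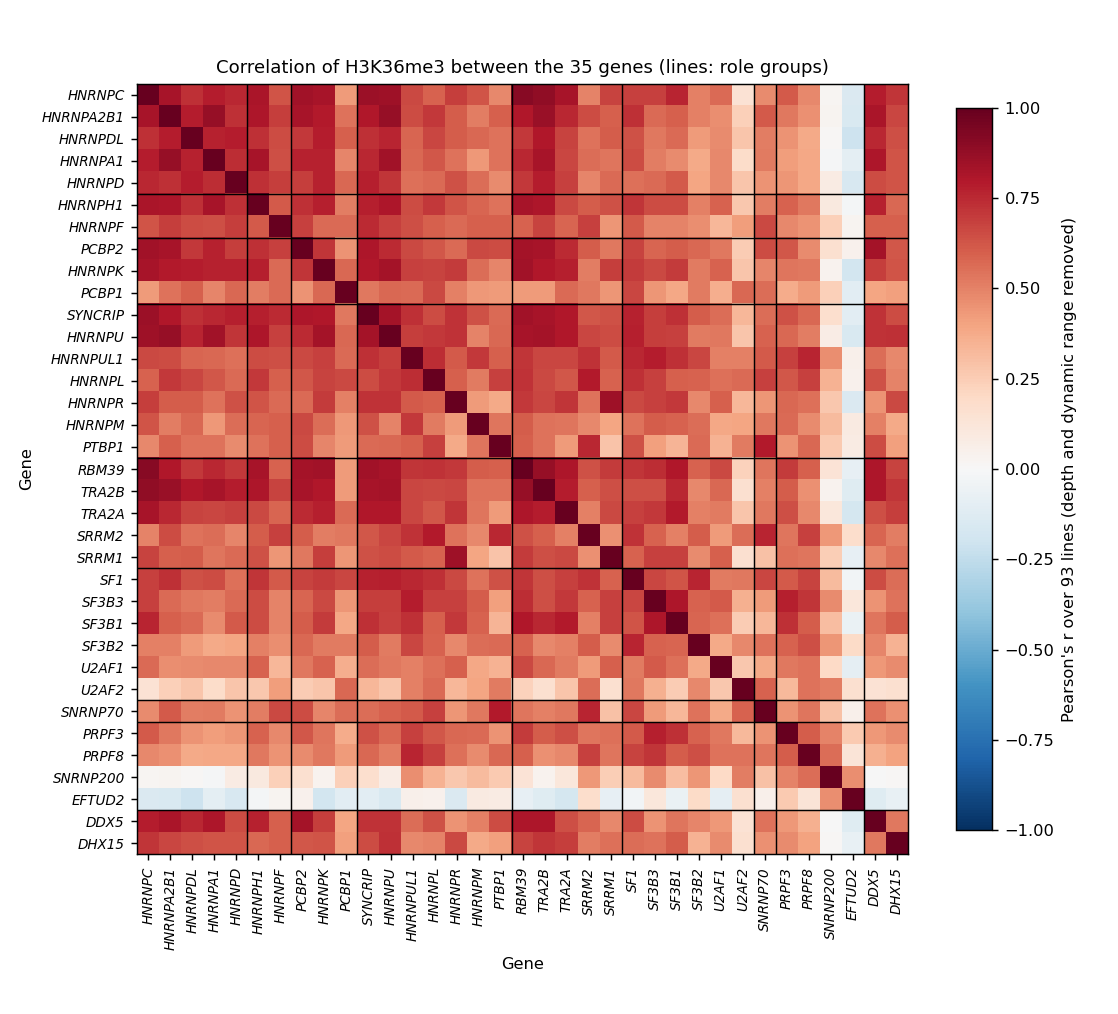
Pearson's r over 93 lines for each pair of the 35 genes after library total and dynamic range were removed, with black lines between role groups. Most of the matrix is red (median 0.585), and EFTUD2 and SNRNP200 form the pale rows.

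With library total and dynamic range removed, EFTUD2 stood apart from the rest. Its correlation with the mean of the other 34 genes was -0.02 (rho = -0.03), and next lowest were SNRNP200 (0.304) and U2AF2 (0.451), against a median of 0.772. The 3 lowest pairs were EFTUD2 with HNRNPDL (r = -0.203), HNRNPK (-0.186) and TRA2A (-0.173). This depended on the adjustment. With no covariates removed EFTUD2 had r = 0.501 with the rest, against a median of 0.842, and was still the lowest of the 35. On the deposited scores it had 0.295, against a median of 0.801. With 10 principal components removed it had 0.377, near the median of 0.426, and PCBP1 was lowest at 0.120. EFTUD2 also had the lowest coefficient of variation of the 35 (0.0995), and the part of its small spread in these values was not tested.

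Relatives and partners were compared in 21 pairs listed by protein family or complex. Their mean correlation was 0.581 and their median 0.587, against a median of 0.584 for the other 574 pairs, so the medians of partner pairs and of other pairs lay close together. The RNA-binding relatives HNRNPA1 and HNRNPA2B1 were highest (0.874), and TRA2A and TRA2B, whose proteins bind the same GAA-rich enhancers, had 0.782. HNRNPR and its relative SYNCRIP had 0.719, HNRNPF and HNRNPH1, which bind G-tracts, had 0.616, and PCBP1 and PCBP2 had 0.448. HNRNPL and PTBP1, which bind CA-rich and pyrimidine-rich RNA, had 0.687. Of the 21 pairs 15 were above 0.5.

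Other hnRNP pairs lay in the same range. HNRNPK had r = 0.715 with PCBP2 and 0.571 with PCBP1, HNRNPC had 0.693 with HNRNPR, and HNRNPU had 0.691 with HNRNPUL1. SRRM1 and SRRM2, both large RS-domain proteins, had 0.458. Within roles, the mean over pairs was highest among the 5 hnRNP A/B, C and D genes (0.778) and lowest among the 4 tri-snRNP genes (0.418). All pairs within the 17 hnRNP genes, PTBP1 and the PCBP genes included, had a mean of 0.658, the 18 others had 0.473, and pairs between both had 0.528. The hnRNP genes also had shorter spans (median 20.6 against 28.6 kb), and the part of span was not tested.

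Within the U2 snRNP, SF3B1 and SF3B3 had r = 0.811 (rho = 0.794). SF3B1, the subunit that contacts the branch-point helix, had 114, 185 and 340 CPM in the lowest, median and highest line, and SF3B3 had 135, 202 and 275. SF3B2, in the rows with the drop, had 0.586 with SF3B1 and 0.587 with SF3B3. SF1 and U2AF2, which bind the branch point and the tract beside it together, had 0.529. U2AF1 and U2AF2, the heterodimer that binds the 3' splice site, had only 0.267, and U2AF2 with RBM39 had 0.229. The latter was -0.05 once the position of the drop was removed.

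In the U5 snRNP, PRPF8 and SNRNP200 had r = 0.560, SNRNP200 and EFTUD2 had 0.463, and PRPF8 and EFTUD2 had 0.125. With no covariates removed these 3 pairs had 0.828, 0.767 and 0.659. SNRNP200 was thus the gene with which EFTUD2 varied most closely, at this adjustment as a description over 34 pairs.

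**Figure D5:**
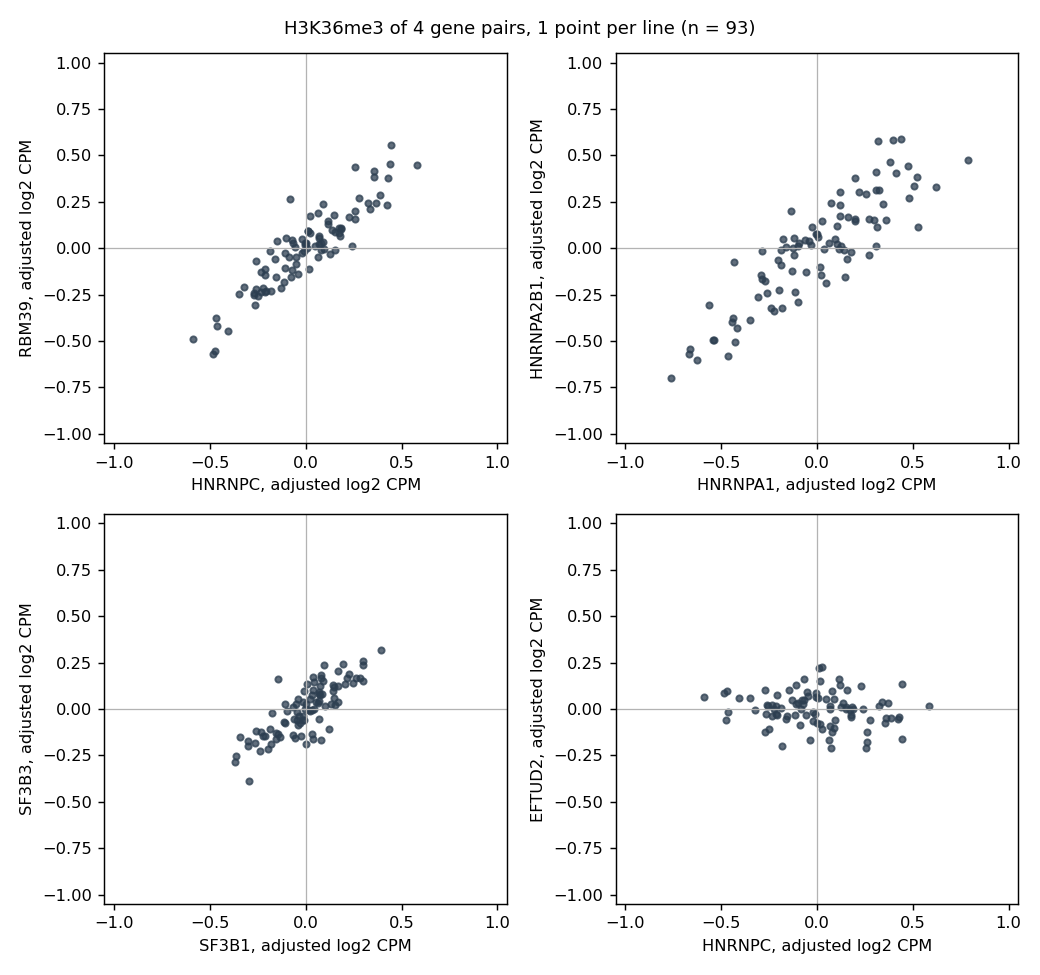
Adjusted log2 CPM (library total and dynamic range removed) of 4 gene pairs, 1 point per line, on equal axes. HNRNPC and RBM39 (r = 0.912), HNRNPA1 and HNRNPA2B1 (0.874) and SF3B1 and SF3B3 (0.811) rise together, and EFTUD2 spans a narrow range with r = -0.145 against HNRNPC.

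Neighbouring features were compared last, since they can share a promoter or counted reads. The 35 genes had a mean correlation of 0.265 with the rows before and after them, against 0.277 ± 0.289 (SD) for all adjacent rows, so their mean was close to that of other features. Of their 70 neighbour values 17 were above 0.5, against 22.8% of all adjacent pairs. SF3B2 was highest (0.874 with the next row), inside the stretch with the drop. HNRNPA2B1 followed, with 0.745 and 0.789 for the row before and the row after. In RefSeq its start lies beside that of CBX3, although the files do not pair the neighbouring identifiers with names. HNRNPD and HNRNPDL are themselves adjacent rows on chromosome 4 and had r = 0.783. HNRNPD had 35.0, 69.3 and 116 CPM in the lowest, median and highest line and HNRNPDL had 14.95, 27.8 and 51.6. SF1 with its next row had 0.777, and this pair too lies in the stretch with the drop.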

How the data were processed

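Reads per feature were deposited as whole-number counts, for 14000 features in each of 93 libraries. A companion table of normal scores was deposited by the authors for the same features, without a statement of its method in the sources used here. The submitters' processing notes name HISAT2 2.2.1, bedtools and hg38 without saying what each did, and no source used here defines the counted interval. The files hold Ensembl identifiers only. The 35 were paired with symbols from the list that defined the set, and the RefSeq positions (GRCh38.p14) of all 35 followed the order of their rows. The other 86 spliceosome genes and 30 cell type markers that were listed could not be matched to identifiers (0 matched), so neither they nor the cell type label were analysed here.

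Counts were scaled with TMM in edgeR 4.0.16, and log2 CPM used a prior count of 2. Tests kept the 13915 features that reached 10 counts in 47 or more libraries, among them all 35 genes, and p-values were adjusted over all of them. Dispersions were each feature's own (prior degrees of freedom 0) and the trend. Correlations are descriptions without p, on log2 CPM with log2 library total and dynamic range removed by linear regression. All 35 genes may be named; those called, with extreme ratios or levels per kb, in extreme or listed pairs, or closest to neighbours are given in full. The members were picked by gene identity, but they and the lists were chosen with earlier results of these data known. In simulated counts, features given an extra SD of 0.3 or 0.6 log2 were called in 98 and 99 of 100 cases each, with 6 false calls among the 13676 unchanged features of 13910 tested. The unchanged features were drawn exactly at the trend, where real features spread widely around it, so these rates hold for the simulation only. Alternatives were DESeq2 1.42.0, other filters, prior counts, covariates and library subsets. R 4.3.3 and Python 3.11.15 were used.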

Additional observations from a re-analysis of the deposited data

How the results depend on the processing

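The alternatives on the place of the drop, 10 principal components, the nearest rows and leaving out SF1 and SF3B2 were chosen after seeing the data. The count of called genes of the set was 12 with the intercept only (3159 of all 13915 features, 22.7%), 1 with 5 principal components (2593, 18.6%) and 0 by DESeq2's dispersion outliers (255, 1.83%). It was 5 or 6 under the other alternatives. Of all features, these called 2229 of 12597 with the filter at 100 counts, 2655 of 14000 with no filter, and 2449 to 2581 of 13915 otherwise. With 5 components the ratio was -0.16 for HNRNPA2B1 and -0.11 for TRA2B. The level of the set and its level per kilobase moved by less than their SD between lines. The mean pairwise correlation was 0.642 with no covariates, 0.308 with 5 and 0.201 with 10 components removed, 0.468 in the 47 deeper libraries and 0.428 with the position of the drop removed. For the listed pairs it was 0.683 with no covariates, 0.358 and 0.264 with 5 and 10 components, 0.543 in the 46 shallower libraries and 0.473 with the position of the drop removed, when U2AF2 and RBM39 had -0.0508. The mean with neighbouring rows was 0.247 with DESeq2 size factors, 0.206 and 0.175 with 5 and 10 components, 0.237 on the deposited scores and also without SF1 and SF3B2, 0.222 in the 46 shallower libraries, 0.226 in the 47 others and 0.228 with the position of the drop removed. The cause was not tested. Exon lengths and spans of all features were not used, so the level per kilobase was not set against all features. No paired analysis was possible because all lines form 1 group. Depth limits PCBP1 most, with 24 counts in its lowest library.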

Other observations

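Of the 34 other genes, PTBP1 was closest to SNRNP70 and then SRRM2, and SNRNP70 to PTBP1 and then SRRM2. PTBP1 and SNRNP70, both on chromosome 19, had r = 0.792, SRRM2 on chromosome 16, which encodes a scaffold protein of nuclear speckles, had 0.754 with PTBP1 and 0.758 with SNRNP70, and HNRNPL had 0.793 with SRRM2. U2AF2, also on chromosome 19, had its highest values with SNRNP70 (0.592), PCBP1 (0.575) and HNRNPL (0.568). These genes were picked after their values were seen, so the values are a description. With 10 principal components removed, PTBP1 had 0.611 with SNRNP70 and 0.631 with SRRM2, HNRNPL had 0.569 with SRRM2, and SNRNP70 had 0.474 with SRRM2. The values of U2AF2 were lower then, at 0.163 with SNRNP70, 0.255 with PCBP1 and 0.263 with HNRNPL.

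HNRNPR and SRRM1, rows 206 and 227 on chromosome 1, had r = 0.845 (rho = 0.798), and 0.662 with 10 principal components removed.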
